A study of Mus musculus with 9 samples.

Results

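Translation initiation and elongation factors are the soluble proteins that bring the ribosome to the start codon of an mRNA and move it along the reading frame. They were examined here as a group of 50 genes out of 17097 measured in mouse CD8+ T cells. Members are the genes whose symbol on the array platform starts with Eif1 to Eif6, Eef1 or Eef2, leaving out Eif2s3x, Eif2s3y and pseudogenes, each read from its brightest probe set that names a single gene. The rule also takes in regulators that carry these names, such as the eIF2 alpha kinases, the eEF2 kinase and enzymes that methylate eEF1A. A further 3 genes that fit the rule, Eef2kmt, Eif4a2 and Eif5b, were named only on probe sets shared with another gene and were not used. Eif4ebp3, Eif4g1 and Eif2s1 were not analysed here.

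The cells were OVA-specific CD8+ T cells, that is, cells that recognise a model antigen, sorted from the spleen 9 days after infection with Listeria monocytogenes. The 4 WT samples came from C57BL/6 mice with floxed Tsc1 alleles and no cre, and the 5 Tsc1-/- samples from mice with the same floxed alleles plus Granzyme B-cre, a cre driven by the promoter of a gene that T cells switch on after activation. Only the Tsc1-/- mice carried cre, so an effect of cre and the loss of Tsc1 cannot be told apart, and all samples in both groups came from infected mice. Each sample was read on 1 array, and values are log2 expression, on which a difference of 1 is a doubling. The labels do not say whether each sample came from a separate animal, so the tests measure the spread between these samples.

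Tsc1, the targeted gene, read 7.77, 7.61, 7.71 and 7.56 in WT replicates 1 to 4 and 7.43, 7.27, 7.51, 7.44 and 7.35 in Tsc1-/- replicates 1 to 5, with no overlap (difference -0.26, SE 0.08, adjusted p = 0.114 with limma). The CD8 T cell markers Cd3e, Cd8a and Cd8b1 were bright in both genotypes. The mean of 10 such markers lay between 11.34 and 11.44 on the WT arrays and between 11.41 and 11.51 on the Tsc1-/- arrays. Of the 10, Gzmb, the granzyme B gene, alone had an adjusted p under 0.05. It was higher in Tsc1-/- with no overlap (difference 0.58, adjusted p = 0.0339 with limma). Markers of other spleen cells were mostly at lower levels. Exceptions were Cd74, Itgax and Hba-a1, which averaged 10.53, 10.11 and 10.09, above the dimmest of the CD8 T cell markers, Cd5, at 9.74. Values for the lists of other spleen cell markers are given below beside the result they move with. In such a bulk sample, fewer cells of a type and less RNA per cell cannot be told apart.

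Initiation in most cells starts at the mRNA cap. The cap-binding protein eIF4E joins the scaffold eIF4G and the helicase eIF4A, the small ribosomal subunit arrives with eIF3 and the eIF2 complex that carries the initiator tRNA, and eEF1 and eEF2 then drive elongation. Tsc1 restrains mTORC1, a kinase that phosphorylates the 4E-binding proteins and so frees eIF4E, and that promotes translation of TOP mRNAs, whose 5′ ends begin with a C followed by a tract of C and T, through the RNA-binding protein Larp1. Ribosomal proteins and several of the translation factors themselves are encoded by TOP mRNAs. In activated T cells this machinery is enlarged as the cells grow and divide. An array reads the amount of an mRNA and not its translation or the phosphorylation of its product.

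None of the 50 genes passed an adjusted p under 0.05 (limma with Benjamini-Hochberg adjustment over 17097 genes), where 1.28% of all genes did, 0.971% with Tsc1-/- higher and 0.31% with it lower. At an unadjusted p under 0.05, 9 were higher in Tsc1-/-, where 9.83% of all genes are, and 6 lower, where 7.34% are, together 15 of 50 against 17.2% of all genes. The members are brighter than most genes (median level 9.31 against 6.34), and 28.0% of all genes at a mean level of 8 to 10 met this p. At the looser adjusted p under 0.1, which 4.32% of all genes met, 1 member qualified, Eif1b. Differences ran from -0.32 to 0.35 on the log2 scale, so no member reached a 1.5-fold difference by its mean. Of the 50 differences, 27 were above 0 and 23 below, against 48.2% and 51.8% of all genes, and the median was 0.04 beside -0.01 over all genes. Members with and without a listed TOP mRNA had medians of opposite sign. The TOP list was chosen with earlier results of these data known, and the difference between the groups of genes was not tested. All 9 factors on a list of TOP mRNAs had a difference below 0 (median -0.17), while the other 41 had a median difference of 0.09 with 27 above 0. The median level of these 41 was 8.74. Among all genes at a mean level of 8 to 10, 1969 of 3077 had a difference above 0 (median 0.065). At 10 to 11 it was 286 of 467 (median 0.051), and at 6 to 8 it was 2946 of 5895 (median -0.00015). A lean above 0 was thus common at 8 to 11, and the 41 were not tested against genes of matched level. Mitosis markers were higher in Tsc1-/-. With their mean as a covariate the medians of the TOP factors and of the others were -0.07 and -0.04. The genotypes did not overlap in 7 members that were lower in Tsc1-/-, where 2.88% of all genes are, and in 1 member that was higher, where 5.08% are, together 8 of 50 against 7.96% of all genes. Brighter genes overlapped less often. The genotypes were apart in 6.99% of all genes at a mean level of 6 to 8, in 16.6% at 8 to 10 and in 28.8% at 11 or above, so 7.96% is a low mark for these members. All 7 of the lower ones are TOP factors.

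**Figure D1:**
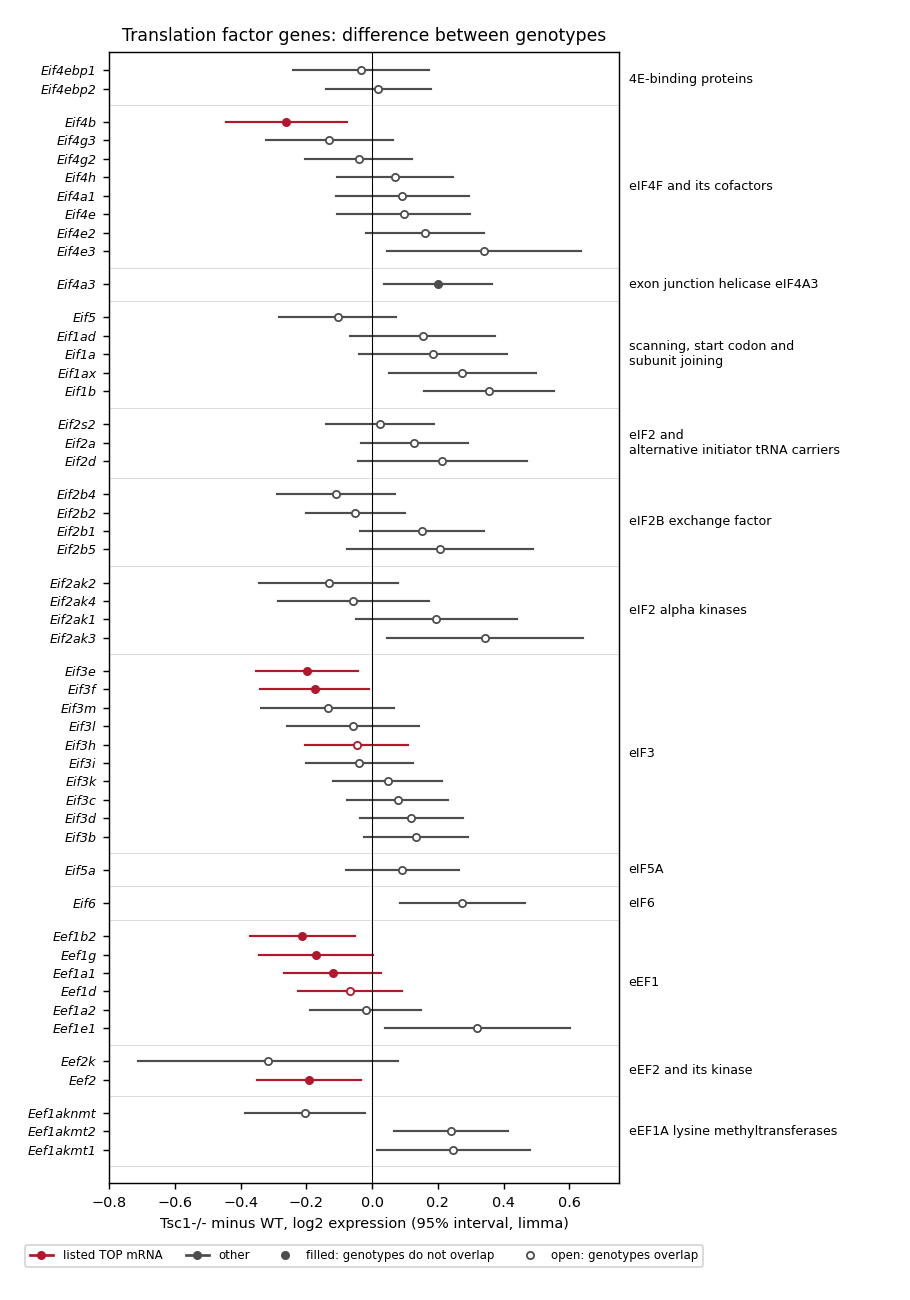
Difference between genotypes (Tsc1-/- minus WT, log2 expression) of each of the 50 genes with its 95% interval from limma, grouped by role; red marks the 9 factors with a listed TOP mRNA, and filled points mark genes whose genotypes do not overlap. The 9 red points all lie left of 0, between -0.26 and -0.05, and the largest difference to the right is that of Eif1b at 0.35.

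The list of TOP mRNAs holds Eef1a1, Eef1b2, Eef1d, Eef1g, Eef2, Eif3e, Eif3f, Eif3h and Eif4b. Promoters of 5 of them are in RefSeq's table for GRCm38.p6, and bases at or near their annotated starts are shown because a C and T tract at the 5′ end defines the class. Each line gives up to 30 bases 5′ to 3′ on the gene's strand, with the longest run made of a C followed by at least 4 bases that are each C or T in capitals, searched on that strand only among runs that begin within 40 bases of the start. The windows lie at chr9:78481710-78481739 on the minus strand for Eef1a1 and on the plus strand at chr1:63176853-63176880 for Eef1b2, chr10:81176636-81176665 for Eef2, chr7:108934401-108934430 for Eif3f and chr15:102073773-102073802 for Eif4b.
Eef1a1: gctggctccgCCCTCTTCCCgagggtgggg
Eef1b2: cgtccgagcgCTTTCgttcaactccggc
Eef2: cgtcagcggtCTCTTCCgccgcagccgccg
Eif3f: ctgttctaggCTCTCTCTCTTTCTCggcaa
Eif4b: cgccgcgccaCCCCCTCgcgctgctttacg
The run of Eif3f is the longest, at 15 bases, and that of Eef1b2 is the shortest, at 5. The runs begin 5 bases before the annotated start in Eef1a1 and 4 before it in Eif3f, but 10, 15 and 32 bases after it in Eif4b, Eef2 and Eef1b2, and the windows of Eef2 and Eef1b2 do not contain the start. Runs of at least 7 bases were found in 4 of these 5 genes, in 15 of the 34 other members in the table, and in 39.1% of all genes of that table (35.5% of its 32851 promoters), counting a gene by the longest run of any of its starts. A run of at least 5 was present in 74.0% of all genes (70.9% of promoters), so such runs are common at gene starts, and a match is a description of the letters and not evidence of the true 5′ end.

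Eif4b, which encodes a cofactor that stimulates the eIF4A helicase and is itself a target of S6 kinase, had the largest difference among the TOP factors. It read 9.87, 9.98, 9.86 and 9.70 in WT replicates 1 to 4 and 9.44, 9.61, 9.67, 9.54 and 9.69 in Tsc1-/- replicates 1 to 5. The highest Tsc1-/- array lay just under the lowest WT array. The difference was -0.26 (SE 0.09, adjusted p = 0.139 with limma), which is 83.4% of the WT level.

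Among the elongation factors, Eef1b2 encodes the nucleotide exchange subunit that reloads eEF1A with GTP. Its values were 11.56, 11.65, 11.55 and 11.43 in WT and 11.31, 11.26, 11.35, 11.37 and 11.37 in Tsc1-/-. The genotypes were again apart, with a difference of -0.21 (SE 0.07, adjusted p = 0.159 with limma). Eef2, the translocase that moves the ribosome by a codon, read 12.08, 12.17, 11.98 and 12.04 in WT against 11.80, 11.91, 11.83, 11.93 and 11.89 in Tsc1-/-, a difference of -0.19 (SE 0.07, adjusted p = 0.201 with limma). Eef1g, a structural subunit of the exchange complex, read 11.75, 11.94, 11.70 and 11.62 in WT and between 11.55 and 11.62 in Tsc1-/-. WT replicate 4 came within the second decimal of the highest Tsc1-/- array, and the difference was -0.17 (SE 0.08, adjusted p = 0.298 with limma), or -0.11 without WT replicate 2. Eef1a1, which delivers aminoacyl-tRNA to the ribosome, read 12.70, 12.79, 12.69 and 12.75 in WT and 12.62, 12.61, 12.57, 12.63 and 12.63 in Tsc1-/-. The genotypes did not overlap, and the difference of the means was -0.12 (SE 0.07, adjusted p = 0.383 with limma). Eef1d, another exchange subunit, overlapped between the genotypes and differed by -0.07 (95% interval -0.22 to 0.09).

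The remaining TOP factors are subunits of eIF3, the large scaffold that holds the small ribosomal subunit. Eif3e read 11.71, 11.82, 11.66 and 11.63 in WT and 11.49, 11.46, 11.55, 11.53 and 11.50 in Tsc1-/-, with no overlap and a difference of -0.20 (SE 0.07, adjusted p = 0.179 with limma). Eif3f read 11.43, 11.56, 11.43 and 11.34 in WT and 11.18, 11.34, 11.21, 11.26 and 11.34 in Tsc1-/-, where WT replicate 4 sat barely above Tsc1-/- replicates 2 and 5. Its difference was -0.17 (SE 0.08, adjusted p = 0.269 with limma), while a further Eif3f probe set, of the s type, whose probes may also bind similar transcripts, differed by 0.05. Eif3h overlapped, with a difference of -0.05 (95% interval -0.20 to 0.11).

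**Figure D2:**
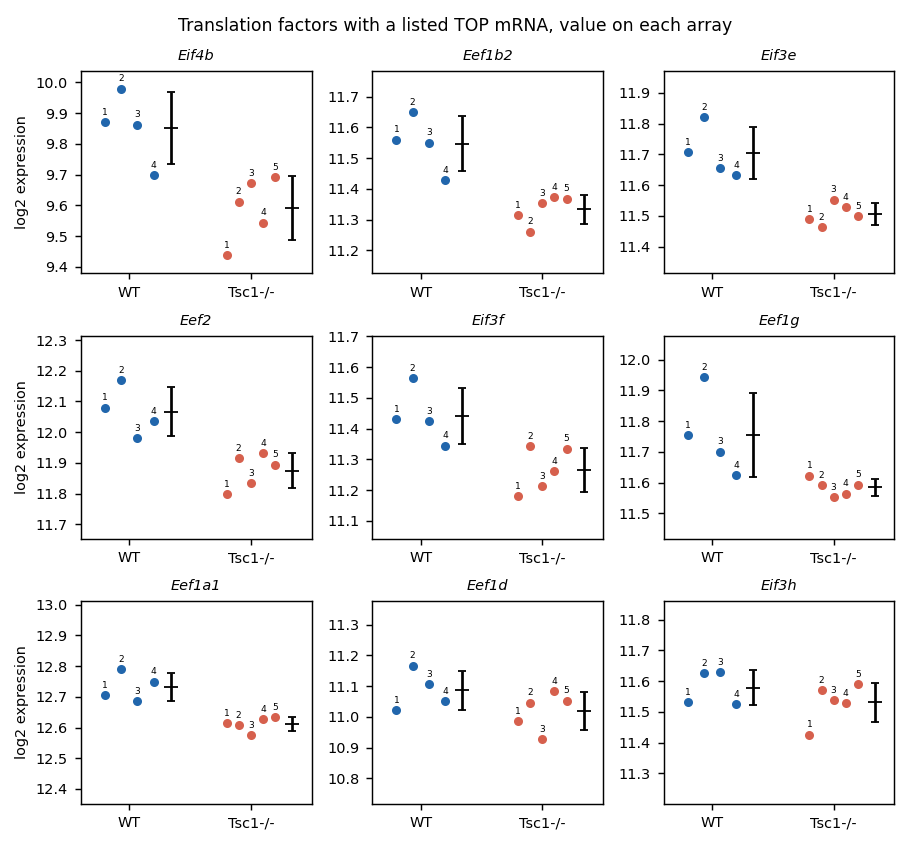
Log2 expression of the 9 factors with a listed TOP mRNA on each array, with the replicate number above each point; bars show the mean ± SD of 4 WT and 5 Tsc1-/- arrays, and each panel spans the same height. The genotypes are apart in all panels except Eef1d and Eif3h, and WT replicate 2 is the highest WT array in 8 of the 9.

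The arrays of a genotype did not vary independently across these genes. WT replicate 2 was the highest WT array for 8 of the 9 TOP factors, Eif3h being the exception, and WT replicate 4 the lowest for 6. The mean of the 9 genes was 11.52, 11.63, 11.51 and 11.45 in WT replicates 1 to 4 and 11.32, 11.38, 11.36, 11.38 and 11.41 in Tsc1-/- replicates 1 to 5. Their median difference was -0.13 without WT replicate 2 and -0.21 without WT replicate 4, and all 9 differences stayed below 0 with any array left out.

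The eIF3 subunits outside the TOP list lay on both sides of 0, 4 above and 3 below, and whether they differ from the TOP subunits was not tested. Their 7 differences ran from -0.14 for Eif3m to 0.13 for Eif3b, with a median of 0.05, and the genotypes overlapped in all 7. Eif3b, a core scaffold subunit, read 8.24 to 8.39 in WT and 8.37 to 8.51 in Tsc1-/-. Eif3c, which contacts eIF1 and eIF5, differed by 0.08 (95% interval -0.08 to 0.23), and Eif3i by -0.04 (95% interval -0.20 to 0.12).

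The mTORC1 substrates among the members, the 4E-binding proteins, had differences near 0. Eif4ebp1, which encodes the 4E-binding protein most studied as a readout of mTORC1, read 7.33, 7.35, 7.43 and 7.33 in WT and 7.24, 7.57, 7.26, 7.12 and 7.44 in Tsc1-/-. The Tsc1-/- arrays spread on both sides of the WT arrays, and the difference was -0.03 (95% interval -0.24 to 0.17, adjusted p = 0.892 with limma). Eif4ebp2, a second inhibitor of eIF4E, read 10.15, 10.18, 10.09 and 10.13 in WT and 10.09, 10.17, 10.05, 10.21 and 10.25 in Tsc1-/-, a difference of 0.02 (95% interval -0.14 to 0.18, adjusted p = 0.931 with limma). Its 5 probe sets differed by -0.07 to 0.08. The sign of both differences changed under some other settings, such as median centring of the arrays for Eif4ebp1 (0.01) and quantile normalization for Eif4ebp2 (-0.01).

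Of the 8 measured genes of the cap-binding complex and its cofactors, 5 had a difference above 0. Eif4e itself was dim and read 5.52 to 5.80 in WT and 5.60 to 5.95 in Tsc1-/- (difference 0.10, 95% interval -0.11 to 0.30). Eif4a1, the main helicase, differed by 0.09 (95% interval -0.11 to 0.29), and Eif4h, which like eIF4B stimulates the helicase, by 0.07 (95% interval -0.11 to 0.24). Eif4g2, a scaffold that lacks the eIF4E-binding site, differed by -0.04 (95% interval -0.20 to 0.12) and Eif4g3, a paralog of the main scaffold, by -0.13 (95% interval -0.32 to 0.06), or -0.077 without Tsc1-/- replicate 1. Eif4e3, an eIF4E relative, had the largest difference of the complex. It read 7.20, 7.65, 7.61 and 7.81 in WT and 8.15, 7.67, 7.91, 7.71 and 8.10 in Tsc1-/-, with Tsc1-/- replicates 2 and 4 inside the WT range (difference 0.34, SE 0.14, adjusted p = 0.224 with limma). Without WT replicate 1 the difference was 0.22 (adjusted p = 0.470 with limma). Its dimmer probe set differed by 0.25 with no overlap (adjusted p = 0.187 with limma over 28898 probe sets).

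Eif4a3 is a relative of the eIF4A helicases that serves in the exon junction complex on spliced mRNAs. It was the only member whose genotypes did not overlap with Tsc1-/- higher: 9.44, 9.47, 9.55 and 9.53 in WT and 9.71, 9.66, 9.57, 9.74 and 9.83 in Tsc1-/- (difference 0.20, SE 0.08, adjusted p = 0.200 with limma). Its second, dim probe set differed by -0.06.

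Factors of scanning and start codon choice held the smallest p of the whole group. Eif1b encodes a near copy of eIF1, the factor that guards the choice of start codon. It read 8.42, 8.47, 8.79 and 8.49 in WT and 8.88, 8.96, 8.76, 8.92 and 8.96 in Tsc1-/-. WT replicate 3 alone reached into the Tsc1-/- range, just above Tsc1-/- replicate 3. The difference was 0.35 (SE 0.09, adjusted p = 0.0738 with limma), or 127.8% of the WT level, and the gene passed without WT replicate 3 (0.44, adjusted p = 0.0480 with limma, where 0.409% of all genes were called higher). Eif1b also passed with dim genes left out, with arrays centred on their medians, and with a variance trend and robust estimation, settings that called 6.17%, 2.23% and 2.98% of all genes higher. The last of these also called Eef1b2, Eif3e and Eef2 lower, where 1% of all genes were. With the mitosis marker mean as a covariate, Eif1b differed by 0.18 (adjusted p = 0.810 with limma). Eif1ax, one of the genes for eIF1A, which opens the small subunit for scanning, read 9.49, 9.62, 9.84 and 9.83 in WT and between 9.80 and 10.20 in Tsc1-/- (difference 0.27, SE 0.10, adjusted p = 0.195 with limma). In Eif1ax, WT replicates 3 and 4 lay near the Tsc1-/- arrays and WT replicates 1 and 2 below them. Its second, dim probe set differed by -0.02, and the mean of its probe sets by 0.13 (adjusted p = 0.387 with limma). The other measured genes of this role, Eif1a, Eif1ad and Eif5, differed by 0.18, 0.15 and -0.11.

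**Figure D3:**
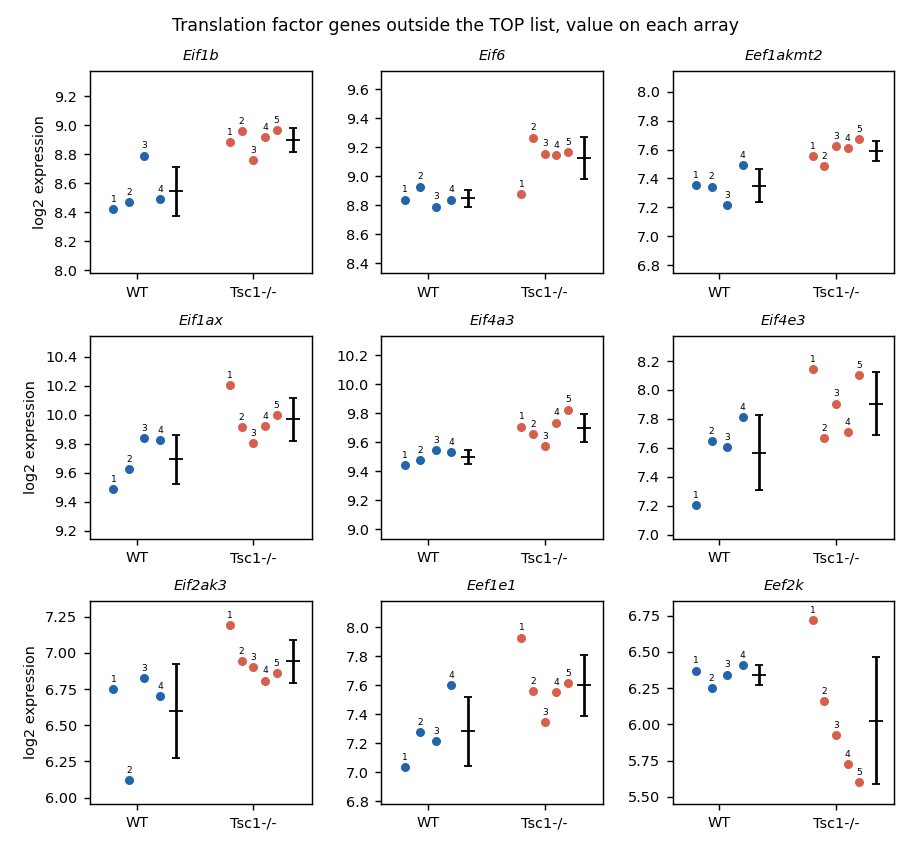
Log2 expression of 9 genes outside the TOP list, chosen among those with the smallest p of their role, on each array with the replicate number above each point; bars show the mean ± SD of 4 WT and 5 Tsc1-/- arrays, and each panel spans the same height. Eif4a3 is the only gene here whose genotypes do not overlap, and Eef2k shows the wide Tsc1-/- spread from 5.60 to 6.72.

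No gene of the eIF2 cycle passed the test or separated the genotypes, and the intervals of some were wide. Eif2s2, the beta subunit of eIF2, differed by 0.02 (95% interval -0.14 to 0.19), and by -0.14 with its dimmer probe set. Eif2a and Eif2d, which encode alternative carriers of initiator tRNA, differed by 0.13 and 0.21, with adjusted p = 0.405 and 0.383 (limma), and Eif2d by 0.14 without WT replicate 1. The 4 probe sets of Eif2d differed by 0.21, 0.12, 0.05 and -0.23, from the brightest to the dimmest. Of eIF2B, the exchange factor that recharges eIF2, 4 subunits were measured, at 0.21 for Eif2b5, 0.15 for Eif2b1, -0.05 for Eif2b2 and -0.11 for Eif2b4, all with overlapping genotypes. Without WT replicate 4 the difference of Eif2b5 was 0.096, without Tsc1-/- replicate 5 it was 0.12, and that of Eif2b1 was 0.098 without Tsc1-/- replicate 3.

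The 4 kinases that phosphorylate eIF2 alpha and so slow initiation under stress were all measured. Eif2ak3, which encodes PERK, the sensor of misfolded protein in the endoplasmic reticulum, read 6.75, 6.12, 6.82 and 6.70 in WT and 7.19, 6.94, 6.90, 6.81 and 6.86 in Tsc1-/-. WT replicate 2 was far below the rest, and WT replicate 3 lay inside the Tsc1-/- range (difference 0.34, SE 0.14, adjusted p = 0.224 with limma). Without WT replicate 2 the difference was 0.18 (adjusted p = 0.443 with limma). Its other 2 probe sets differed by 0.14 and 0.42. Eif2ak1, the heme-regulated kinase, differed by 0.20 (95% interval -0.05 to 0.44), Eif2ak2, the kinase PKR that senses double-stranded RNA, by -0.13 (95% interval -0.34 to 0.08), and Eif2ak4, the amino acid sensor GCN2, by -0.06 (95% interval -0.29 to 0.17). Eif2ak1 differed by 0.31 without WT replicate 4, and Eif2ak2 by -0.052 without WT replicate 3.

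Eif6, which keeps the large ribosomal subunit from joining too early, read 8.84, 8.93, 8.79 and 8.84 in WT and 8.88, 9.27, 9.16, 9.15 and 9.17 in Tsc1-/-. Replicate 1 was the only Tsc1-/- array within the WT range, and the difference was 0.27 (SE 0.09, adjusted p = 0.131 with limma), with 0.17 by its second probe set. Eif5a, the hypusine-bearing factor that eases stalled peptide bond formation, differed by 0.09 (95% interval -0.08 to 0.26).

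Outside the TOP list, the elongation genes went different ways. Eef2k encodes the kinase that inactivates eEF2 and is itself inhibited downstream of mTORC1. Its values were 6.37, 6.25, 6.34 and 6.41 in WT and 6.72, 6.16, 5.93, 5.72 and 5.60 in Tsc1-/-. Of the Tsc1-/- arrays 4 lay below all WT arrays and replicate 1 above them, so the difference of -0.32 (95% interval -0.71 to 0.08, adjusted p = 0.398 with limma) is smaller than the SD of 0.44 among Tsc1-/- arrays, and the level lies below the median of all genes, 6.34. The Eef2k difference was -0.49 without Tsc1-/- replicate 1 and -0.21 without Tsc1-/- replicate 5. Eef1e1, whose product sits in the multi-synthetase complex rather than on the ribosome, read 7.04, 7.28, 7.21 and 7.60 in WT and 7.93, 7.56, 7.35, 7.55 and 7.62 in Tsc1-/- (difference 0.32, SE 0.13, adjusted p = 0.228 with limma). Eef1a2, the eEF1A of muscle and neurons, was dim and differed by -0.02 (95% interval -0.19 to 0.15). Of the enzymes that methylate eEF1A, Eef1akmt1 and Eef1akmt2 differed by 0.25 and 0.24 and Eef1aknmt by -0.20, with adjusted p = 0.263, 0.145 and 0.233 (limma), and each overlapped between the genotypes.

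Most TOP factors are among the brightest probe sets on the array, where replicate spread is small. At a mean level of 11 or above there were 316 genes, with a median difference of 0.01 and no overlap between genotypes in 28.8% of them, 12.7% with Tsc1-/- lower. The 13 members at that level had a median of -0.07, and the 6 that did not overlap were all TOP factors. The TOP factors Eef1d (-0.07) and Eif3h (-0.05), also at that level, overlapped. The 5 members at that level outside the TOP list overlapped too and had a median of 0.08. Rps6, a ribosomal protein gene that is not a member, averaged 12.96 and was also lower with no overlap (difference -0.09, adjusted p = 0.546 with limma). Other ribosomal protein genes are not described here. With each array's trend on level removed, an alternative added after the values were seen, the TOP factors differed by a median of -0.21.

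**Figure D4:**
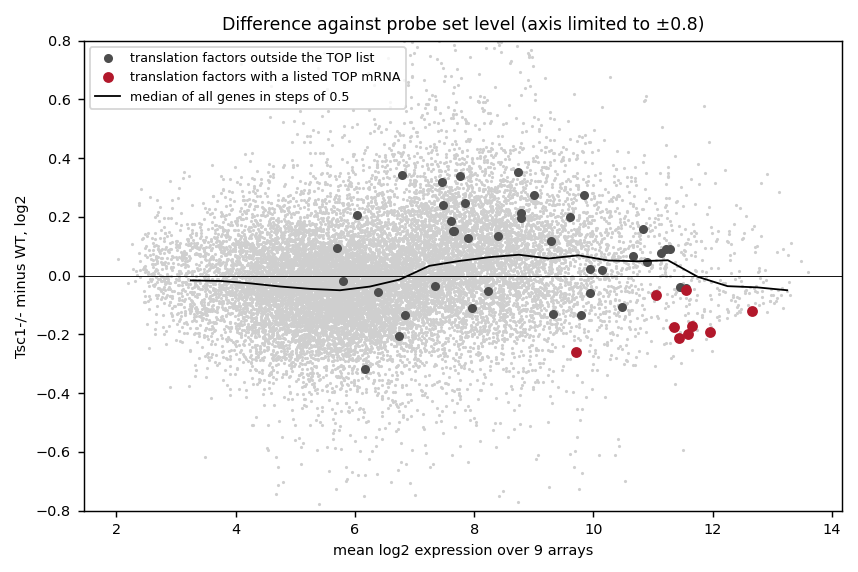
Difference between genotypes (Tsc1-/- minus WT, log2) against the mean level over 9 arrays for all 17097 genes (grey; genes beyond ±0.8 are not drawn), with the 9 TOP factors in red, the other 41 factors in dark grey, and the median of all genes as a line. The 9 TOP factors lie below the line, 8 of them at levels above 11, where the 5 other factors have a median of 0.08.

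Markers of dividing cells and of other spleen cells moved with genotype beside these genes. All 14 mitosis markers were higher in Tsc1-/- (median difference 0.72, 5 of them past the threshold), and their mean was 7.39, 7.40, 7.97 and 8.07 in WT replicates 1 to 4 and 8.21 to 8.56 in Tsc1-/-. Of 11 macrophage and monocyte markers, 10 were lower (median difference -0.47, none past the threshold), with means of 7.09, 7.24, 7.08 and 6.39 in WT and 6.27 to 6.66 in Tsc1-/-. B cell markers were lower in 6 of 7, with means of 6.35 to 7.15 in WT and 6.12 to 6.64 in Tsc1-/-. Log2 RMA values have no true zero, and the dimmest marker of each list, Cd14 and Ms4a1, averaged 4.60 and 4.73. The few measured markers of dendritic cells (4 of 4), neutrophils (4 of 4) and erythroid cells (2 of 2) had differences below 0, with overlapping genotypes in each. At an unadjusted p under 0.05 (limma) there was 1 dendritic cell marker and 0 of the neutrophil and erythroid markers. Tsc1-/- replicate 2 was the highest of the 9 arrays for Hba-a1 (11.82) and S100a8 (10.68), and Mpo differed by -0.0048. The 2 measured plasma cell markers went both ways, Jchain by -1.71 (adjusted p = 0.0761 with limma) and Xbp1 by 0.21 (adjusted p = 0.257 with limma), each with overlapping genotypes. The part of these cells in the results was not tested beyond the covariate fits that follow. WT replicate 4, the WT array with the lowest macrophage mean and the highest mitosis mean, was also the one with the lowest mean of the TOP factors and the highest mean of the other factors. The Tsc1-/- arrays did not all keep this order. Replicate 1 had their highest mitosis mean (8.56) and lowest TOP mean (11.32). Replicate 5 had their highest TOP mean (11.41), with a mitosis mean of 8.38, above those of replicates 2 to 4, and a macrophage mean of 6.32.

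With the macrophage mean as a covariate, the median difference was -0.13 for the TOP factors and 0.07 for the others. With the mitosis mean as a covariate it was -0.07 and -0.04, with all 9 TOP differences below 0 and 17 of all 50 differences above 0. The mitosis mean and genotype separate the arrays the same way and cannot be told apart.

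**Figure D5:**
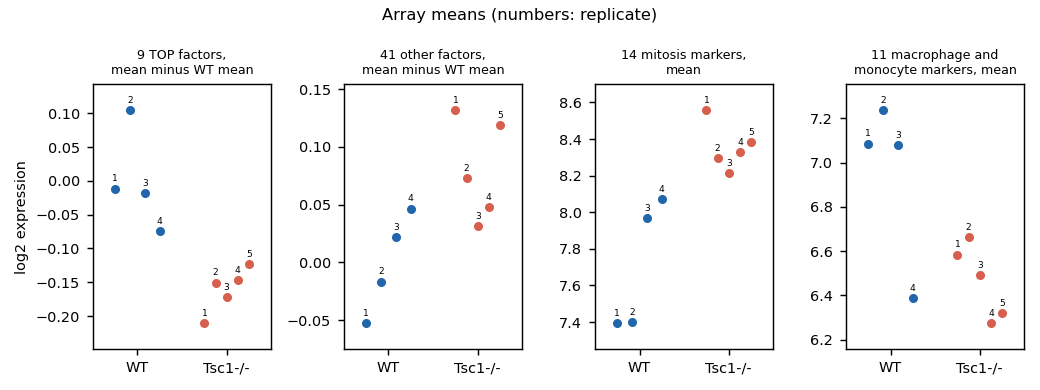
Mean log2 expression on each array, with replicate numbers, of the 9 TOP factors and the 41 other factors (each gene taken relative to its WT mean), of 14 mitosis markers and of 11 macrophage and monocyte markers. The TOP mean is below every WT array in each Tsc1-/- array, the mitosis mean is above every WT array, and WT replicate 4 has a macrophage mean of 6.39, inside the Tsc1-/- range.

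Other genes of the pathway were counted from lists of cofactors. In the signalling list from mTORC1 to the cap, 0 of 14 measured genes passed (limma). At an unadjusted p under 0.05, which 17.2% of all genes met, there was 1 gene. That gene was Rheb, the GTPase that Tsc1 and Tsc2 switch off and that activates mTORC1. It read 8.56, 8.49, 8.28 and 8.44 in WT and 8.69, 8.84, 8.72, 8.68 and 8.82 in Tsc1-/-, with no overlap (difference 0.31, SE 0.08, adjusted p = 0.0789 with limma). Mtor differed by -0.18 (adjusted p = 0.299 with limma).

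Among 13 poly(A)-binding and cap cofactors, 0 passed (limma). At an unadjusted p under 0.05 there were 3, or 23.1% beside 17.2% of all genes. The subunits of the nuclear cap-binding complex, Ncbp1 and Ncbp2, which bind new mRNAs before eIF4E does, had the smallest p. Ncbp1 read 7.37 to 7.55 in WT and 7.66 to 8.04 in Tsc1-/- (difference 0.36, adjusted p = 0.0761 with limma). Ncbp2 read 7.89 to 8.35 in WT and 8.35 to 8.59 in Tsc1-/- (difference 0.38, adjusted p = 0.0718 with limma), and neither overlapped, Ncbp2 by a gap in the third decimal only.

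Of 7 mitochondrial translation factors, 5 had a difference above 0 and 1 passed the threshold as higher in Tsc1-/-, where 0.971% of all genes did. Gfm1, the mitochondrial elongation factor G, read 7.44, 7.63, 7.33 and 7.60 in WT and 7.98, 7.95, 7.98, 7.80 and 7.97 in Tsc1-/-, with no overlap (difference 0.44, SE 0.08, adjusted p = 0.0359 with limma). It did not pass without any 1 of 8 arrays, WT replicates 1 to 3 and Tsc1-/- replicates 1 to 5 (differences 0.38 to 0.48, adjusted p = 0.0508 to 0.125 with limma). Those fits called fewer genes of all kinds, 0.0117% to 1.10% of all genes against 1.28% with all arrays. The mean of the Gfm1 probe sets differed by 0.27 (adjusted p = 0.0508 with limma, a setting that called 1.39% of all genes). No other gene of this list passed; Tufm, the mitochondrial elongation factor Tu, differed by 0.13.

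In the remaining lists 0 genes passed (limma). The counts that follow are at an unadjusted p under 0.05, which 17.2% of all genes met, and the lists were not tested as groups. Of 12 genes of the response to eIF2 phosphorylation, 3 had an unadjusted p under 0.05, led by Sesn2 (0.39) and Asns (0.47), which are induced by Atf4, while Atf4 itself differed by 0.08. Other genes of this response, Trib3 (-0.22), Chac1 (-0.14) and Ppp1r15a (-0.10), had differences below 0, as did 5 of the 12 in all. Among 8 genes of termination and recycling there were 2, N6amt1 (0.31) and Etf1 (0.22, or 0.12 without WT replicate 4), the release factor. Among 11 enzymes that modify the factors there were 5, of which Eef1akmt1 and Eef1akmt2 are members described above and Dnajc24, of the diphthamide pathway that modifies eEF2, differed by 0.31 with no overlap.

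The members were read by 103 single-gene probe sets in all, none of which passed when each was tested on its own (limma, smallest adjusted p = 0.0912; 22 at an unadjusted p under 0.05), where 0.827% of all probe sets passed and 16% had an unadjusted p under 0.05. Of the 30 members with several probe sets, all probe sets of 17 had the same sign. Among the 4 TOP factors with several, this held for Eef1d, Eef1g and Eif4b and not for Eif3f. The 3 probe sets of Eif4b differed by -0.26, -0.07 and -0.18. For Eif4g2 and Eif4g3, dimmer probe sets were lower in Tsc1-/- with no overlap, by -0.28 and -0.41, while the brightest ones overlapped. The brightest probe set of 6 members, among the TOP factors that of Eef1d, is of the s or x type, whose probes may also bind other genes' transcripts.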

How the data were processed

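Expression was measured on 9 arrays, 4 WT and 5 Tsc1-/-, from 12 ng of RNA each. The deposited values are log2 expression; the submitters' processing notes name RMA and Partek 6.5, and further options are not stated there. RMA usually gives all arrays a common distribution, in which a shift of most mRNAs together is not seen. With this few arrays, small differences have wide intervals. Of 45037 probe sets, 28898 named 1 gene, 551 several, and 15588 had no listed gene. Entrez identifiers linked 28689 probe sets to current RefSeq symbols (GRCm38.p6).

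Each gene was tested with limma 3.58.1 in R 4.3.3 (lmFit and eBayes, genotype as the only term, Benjamini-Hochberg over 17097 genes, threshold 0.05), checked on simulated data. In these, 60% of differences of 0.5 and 95% of differences of 1 were recovered. Smaller differences, such as those of all members, were not simulated, so a member that did not pass may still differ. Differences are Tsc1-/- minus WT. Plots used Python 3.11.15.

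The members and lists, TOP list included, were chosen with earlier results of these data known. The genes named were Tsc1, a standing set of core factors, and per role the 2 members with the smallest p and those without overlap; per pathway list, genes past the threshold or else the 2 with the smallest p. Other genes named were chosen after their values were seen. Alternatives covered probe set choice, dim genes, normalization, variance model, array weights, replicate block, thresholds, marker covariates and arrays left out. Removal of the trend on level (loess, span 0.3) was added after the data were seen.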

Additional observations from a re-analysis of the deposited data

Results flagged for a closer look

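In 5 of 46 values examined, 1 array stood apart from the others of its genotype by Dixon's criterion at the 95% level, which chance meets in about 5% of groups, and 92 groups were examined. Eif2a read 7.73 in WT replicate 1, with the other WT arrays at 7.84 to 7.86. Eif2ak1 read 9.11 in Tsc1-/- replicate 1, where the other Tsc1-/- arrays reached 8.84. Outside the factor genes, Etf1 read 7.71 in WT replicate 4 (others from 8.07), Gfm1 read 7.80 in Tsc1-/- replicate 4 (others from 7.95), and Ncbp1 read 7.37 in WT replicate 3 (others from 7.54).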

How the results depend on the processing

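All 9 TOP factors had a difference below 0 in every setting run on genes, and 13 of their 14 single-gene probe sets did. Leaving out 1 array at a time gave a median of -0.207 to -0.134 for the TOP factors, 0.0811 to 0.114 for the other factors and 0.0162 to 0.0547 for all members, with 26 to 29 members above 0, 0 to 1 called higher and 0 called lower. The 1 call was Eif1b without WT replicate 3. Eif1b was also the 1 member called higher with dim genes left out, with median centring, with a variance trend and robust estimation (which called 3 lower) and at an adjusted p under 0.1. The members' median was not stable in sign or size. It was -0.000224 with each gene's probe sets averaged (all genes -0.0076). With probe sets not joined it was -0.00215 (51 of 103 above 0, median of the other factors 0.0238, all probe sets -0.0070). With median centring it was 0.0781, where the median of all genes also moved, from -0.0063 to 0.0366. It was -0.0403 with the mitosis covariate (all genes 0.0063). That covariate left 17 members above 0, a median of -0.0654 for the TOP factors and -0.0375 for the others. The causes were not tested.

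Single genes changed sign, and not only those with small differences. Among those that changed with the mitosis covariate, Eif2ak3, Eif4e3, Eef1e1 and Asns differed by 0.34, 0.34, 0.32 and 0.47 without it. The SEs of these 4 in the covariate fit were 0.21, 0.21, 0.18 and 0.19. Eif4h was at -0.00062 with a gene's probe sets averaged. Eif4ebp2 was at -0.011 with quantile normalization and -0.026 with the trend on level removed. With median centring Eif4ebp1 was at 0.0085 and Eif4g2 at 0.0021. With the macrophage covariate Eif2ak4 was at 0.082, Eif4e at -0.061, Eif4ebp1 at 0.033 and Eif4h at -0.028. With the mitosis covariate Eef1e1 was at -0.081, Eif1ax at -0.076, Eif2ak1 at -0.15, Eif2ak3 at -0.016, Eif2d at -0.17, Eif4a1 at -0.045, Eif4e3 at -0.028, Eif4g3 at 0.089, Eif4h at -0.10, Eif5a at -0.080 and Asns at -0.29. With arrays left out, Eif2ak4 ranged from -0.13 to 0.0057, Eif4ebp1 from -0.095 to 0.017 and Eif4ebp2 from -0.0066 to 0.044.

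Samples with the same replicate number did not deviate together (r = -0.10, 0.09, -0.07 and 0.02), and WT replicate 2 alone correlated best with its own number. With a replicate block, in which Tsc1-/- replicate 5 has no partner and adds nothing, 0 members were called, 26 were above 0, and the median was -0.192 for the TOP factors and 0.0968 for the others. Eif4ebp2 was then at -0.0066, and Gfm1 lost its call, as 0 of all genes passed. Gfm1 also lost it with quantile normalization, either marker covariate and the level trend removed, settings that called 0.526%, 0% and 0.597% of all genes. The number of arrays limits the precision: the median SE of a member's difference was 0.082.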
